A study of Rattus norvegicus with 10 samples.

Results

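Glutamate receptors and proteins that work with them were examined in the supraoptic nucleus of rats after a short hairpin RNA against Opn3. The set holds 26 receptor genes, taken by name as all genes whose symbol begins with Gria, Grin, Grik, Grid or Grm followed by a number, and 7 partner genes, namely Slc17a6, Slc17a8, Slc1a1, Cnih2, Cnih3, Grip1 and Dlg4. These 33 genes were all found among the 32623 genes of the deposited table, under 1 Ensembl identifier each. The rule took genes by name, but it was set with earlier results of these data known. A test also needed a minimum mean of 10 normalized counts over the 10 samples, which 32 of the 33 met.

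The supraoptic nucleus is a hypothalamic nucleus of magnocellular neurons, which release vasopressin and oxytocin and receive dense glutamatergic input. The animals were male Sprague-Dawley rats of 250 to 300 g, whose age is not given in the sources used here. One nucleus received an adeno-associated virus with a hairpin against Opn3, the gene of a light-sensitive receptor (group shOpn3, n = 5), and the opposite nucleus a virus with a hairpin that targets no gene (group shControl, n = 5). Both groups therefore carried a virus and a hairpin, and no nucleus without virus was analysed here. Tissue was taken 2 weeks later as 1 mm punches from 100 µm sections, and each nucleus was extracted alone. The promoter that drove the hairpins and the cells they reached are not given in the sources used here. A punch holds neurons, glia and vessels together, so fewer cells of a type and less RNA per cell cannot be told apart in these data.

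Glutamate is the main excitatory transmitter of the brain. AMPA receptors (Gria genes) carry its fast currents, and their GluA2 subunit, encoded by Gria2, keeps calcium out of the channel. NMDA receptors (Grin genes) are assembled around the obligatory subunit GluN1 with GluN2 or GluN3 subunits and let calcium in when the cell is depolarised. Kainate receptors (Grik genes) modulate transmission on both sides of the synapse, delta receptors (Grid genes) bind cerebellin proteins and organise synapses, and metabotropic receptors (Grm genes) act through G proteins. Vesicular transporters such as VGLUT2 (Slc17a6) and VGLUT3 (Slc17a8) load glutamate into vesicles, and membrane transporters take it up again.

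Among the 32 genes tested, 7 rose and 2 fell at a limma adjusted p under 0.05, and 23 did not pass the test. Over all 15597 genes tested the share called was 18.8%, with 10.4% higher and 8.48% lower, against 28.1% of these 32 genes, with 21.9% higher and 6.25% lower. The median log2 fold change was 0.16 for the set and -0.02 for all genes tested. The rises were those of Gria2, Gria3, Grin2a, Grin3a, Grm2, Grm5 and Slc17a8, and the falls those of Grik4 and Grm3. Expression did not overlap between the groups for 6 of the 32 genes, 4 higher and 2 lower, where 15.3% of all genes tested showed no overlap (8.03% higher and 7.23% lower). In 10 of the 32 genes all 5 same-numbered pairs differed in the same direction, against 39.4% of all genes tested. With the replicate number as a block, 12 of the 32 were called, 10 higher and 2 lower, against 30.3% of all genes; Grm6, Grm8 and Dlg4 were the additions. On whole reads, edgeR called 10 of the 32 (8 higher and 2 lower), against 19.4% of all genes (10.4% higher and 9.04% lower), and limma-voom with quality weights called 13 (10 higher and 3 lower), against 32.6% (15.7% higher and 17% lower).

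**Figure D1:**
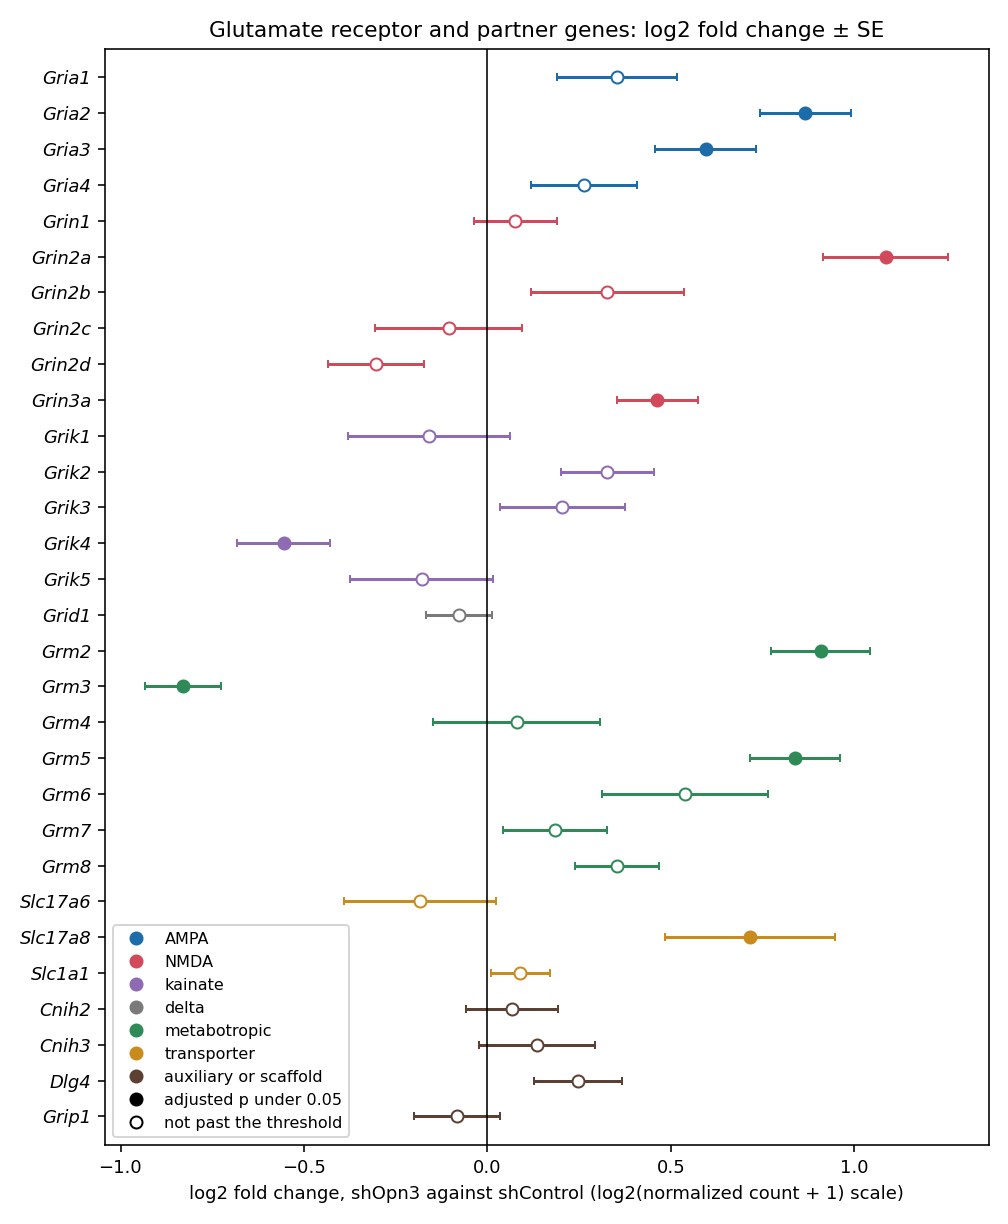
Log2 fold change (x axis, shOpn3 against shControl on the log2(normalized count + 1) scale) of 30 of the 32 genes tested, 1 row per gene, with bars for the standard error and colours for the role. Filled points passed an adjusted p of 0.05; Grin2a lies farthest to the right at 1.09 and Grm3 farthest to the left at -0.83.

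The targeted gene and the peptide transcripts served as a check of the labels and the tissue. Normalized counts of Opn3 averaged 704 ± 277 in the shControl nuclei and 188 ± 59.7 in the shOpn3 nuclei (± SD, n = 5), and its groups overlapped through shControl replicate 5, at 261. Avp stood at 21.4% and Oxt at 20.6% of the control mean, and both were present in every library. Libraries held 33158341 to 39958578 reads. The 32 genes had means of 63.1 to 18306 normalized counts.

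Promoter sequences were looked up for genes whose groups did not overlap, because these carry the clearest differences of the set. Of the 33 genes 20 were matched by symbol in the RefSeq promoter table of build GRCr8, among them Grm5, which rose, and Grik4, which fell. Their 250 bases before the annotated start are printed 5′ to 3′ on the strand of the gene, with capitals for a match to any of 5 motifs. These were the GC box GGGCGG, the cAMP response element TGACGTCA, the AP-1 site TGANTCA, the NRF-1 site and the interferon-stimulated response element, which is GAAA and GAAA with any 2 bases between, each searched on both strands.
Grm5 promoter, GRCr8 chr1:150733503-150733752, forward strand: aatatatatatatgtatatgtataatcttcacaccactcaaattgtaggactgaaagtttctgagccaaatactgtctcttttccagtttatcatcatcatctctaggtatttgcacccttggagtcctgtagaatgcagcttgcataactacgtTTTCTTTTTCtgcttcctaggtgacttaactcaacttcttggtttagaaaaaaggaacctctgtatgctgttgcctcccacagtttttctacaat
Grik4 promoter, GRCr8 chr8:52102064-52102313, reverse strand: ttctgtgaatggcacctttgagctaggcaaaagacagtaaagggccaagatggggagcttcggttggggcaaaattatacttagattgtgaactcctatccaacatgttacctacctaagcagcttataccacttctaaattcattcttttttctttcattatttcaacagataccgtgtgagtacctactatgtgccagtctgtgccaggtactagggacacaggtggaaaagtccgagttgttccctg
In the Grm5 window the capitals mark 1 match to the interferon-stimulated response element, read on the opposite strand. That motif was held by 3.41% of 33469 windows of this length and by 1 of the 20 matched genes. The Grik4 window held no match. The GC box was found upstream of 5 of the 20 genes (Cnih2, Cnih3, Grik3, Grik5 and Grm7), against 30.5% of all windows. None of these 5 genes was called, and 4 of the 20 matched genes were, close to the 18.8% of all genes tested. At such a share, no call among 5 genes is not a result about the GC box. The other 3 motifs were in 1.59%, 6.34% and 0.762% of all windows and in 0 of the 20. G and C made up 36.4% of the Grm5 window and 43.2% of the Grik4 window, against a median of 58.6% over the 20 genes and 51.2% over all windows.

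Of the 4 AMPA receptor subunit genes 2 rose and 2 did not pass the test, where 18.8% of all genes tested were called (10.4% higher). Gria2 (ENSRNOG00000054204), the subunit gene that sets calcium permeability, had normalized counts of 11433, 13221, 14863, 13199.8 and 11764 across shControl nuclei 1 to 5 and 24446, 29099.6, 25106, 17732 and 22199.8 across shOpn3 nuclei 1 to 5. Every shOpn3 sample lay above every shControl sample, and shOpn3 replicate 4 was the lowest of its group. The means were 12896 ± 1368 in the shControl nuclei and 23717 ± 4170.1 in the shOpn3 nuclei (SD, n = 5). Gria2 thus stood at 184% of the control mean (log2 fold change 0.87 with an SE of 0.124, limma adjusted p = 0.000778). An exact two-sided permutation that ignored the sample numbers gave p = 0.00794, the smallest that 5 against 5 unpaired samples allow. The paired design would allow swaps within pairs only. With 5 pairs such swaps cannot give an exact two-sided p under 0.05, and they were not run. With the replicate block the limma adjusted p of Gria2 was 0.00102. Within pairs Gria2 lay at 134% to 220.1% of the same-numbered control.

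Gria3 (ENSRNOG00000007682), a subunit that often pairs with GluA2, had 3385, 3561, 3956, 3745 and 3318 across shControl nuclei 1 to 5 and 5795, 7044, 5717, 3712 and 5373 across shOpn3 nuclei 1 to 5. In 4 of 5 pairs the shOpn3 sample was clearly higher, and in the pair with number 4 both samples were nearly level, so the groups overlapped. Gria3 rose to 154% of the control mean (log2 fold change 0.59 with an SE of 0.138, limma adjusted p = 0.0103).

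Gria1 and Gria4 encode the other pore-forming subunits. Gria1 had 4095, 3747, 3594, 3498 and 3589 across shControl nuclei 1 to 5 and 6743, 5209, 4303, 3064 and 5075 across shOpn3 nuclei 1 to 5 (log2 fold change 0.35 with an SE of 0.164, limma adjusted p = 0.16). Replicate 4 alone was lower in shOpn3, and without that shOpn3 library Gria1 was called, at 0.51 on the log2 scale with a limma adjusted p of 0.0117. Gria4 ranged over 3363 to 5366 in shControl and 4003 to 6666 in shOpn3 (log2 fold change 0.26 with an SE of 0.145, limma adjusted p = 0.24), with 3 of 5 pairs higher.

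Of the 6 NMDA receptor genes tested 2 rose, both of modulatory subunits, and 4 did not pass. The share called was 33.3%, against 18.8% of all genes tested (10.4% higher). Grin2a (ENSRNOG00000033942), which encodes GluN2A, the subunit that gains over GluN2B as synapses mature, had 542, 374, 376, 286 and 402 across shControl nuclei 1 to 5 and 1005, 885, 832, 595 and 861 across shOpn3 nuclei 1 to 5. Its groups did not overlap, and sample number 1 was the highest and number 4 the lowest in both groups. Grin2a rose to 211% of the control mean, from 396 ± 92.9 to 836 ± 149.8 (log2 fold change 1.09 with an SE of 0.171, limma adjusted p = 0.0012; SD, n = 5). The pairs gave 185% to 236% of the control, all well above parity.

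Grin3a (ENSRNOG00000005723), whose product GluN3A lowers the calcium permeability of the receptor, had 1444, 1673, 1815, 1567 and 1205 across shControl nuclei 1 to 5 and 2184, 2342, 2152, 1811 and 2067 across shOpn3 nuclei 1 to 5. All 5 pairs were higher in shOpn3, although shOpn3 replicate 4 fell just under shControl replicate 3. The rise was to 137% of the control mean (log2 fold change 0.46 with an SE of 0.110, limma adjusted p = 0.0119).

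Grin1 (ENSRNOG00000011726), the gene of the obligatory GluN1 subunit, had 7908, 6323, 6212, 6322 and 6041 across shControl nuclei 1 to 5 and 8259, 7706, 6035, 5697 and 7031 across shOpn3 nuclei 1 to 5. The groups lay on top of each other, with 3 pairs higher and 2 lower (log2 fold change 0.08 with an SE of 0.113, limma adjusted p = 0.694). Grin2b, the gene of GluN2B, ranged over 581 to 774 in shControl and 529 to 1362 in shOpn3 (log2 fold change 0.33 with an SE of 0.209, limma adjusted p = 0.312). The shOpn3 values of Grin2b were spread far more widely than the control values. Grin2c, a subunit gene known from cerebellum and astrocytes, ranged over 659 to 1261 in shControl and 618 to 1143 in shOpn3 (limma adjusted p = 0.762). Grin2d, whose product closes slowly, ranged over 307 to 406 in shControl and 219 to 335 in shOpn3 (log2 fold change -0.30 with an SE of 0.130, limma adjusted p = 0.128), with 4 of 5 pairs lower. Grin3b was under the minimum mean and not tested, with values of 3.06 to 13.3 in shControl and 3.84 to 10.3 in shOpn3.

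Of the 5 kainate receptor genes 1 fell and 4 did not pass, a share called of 20%, close to the 18.8% of all genes tested (8.48% lower). Grik4 (ENSRNOG00000030910), which encodes the high-affinity subunit GluK4, had 1339, 1075, 1034, 985 and 1439 across shControl nuclei 1 to 5 and 954, 689, 705, 807 and 822 across shOpn3 nuclei 1 to 5. Every shOpn3 sample lay under every shControl sample, if only narrowly at the boundary. Grik4 stood at 67.7% of the control mean (log2 fold change -0.56 with an SE of 0.127, limma adjusted p = 0.00941), and pairs lay at 57.1% to 81.9%.

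Grik5, the other high-affinity subunit gene, was lower in shOpn3 in 5 of 5 pairs, but by little (82.5% to 99.9% of the control; log2 fold change -0.18 with an SE of 0.195, limma adjusted p = 0.573). With the replicate block its adjusted p was 0.0615 in limma and 0.0473 in edgeR. Grik2, the gene of GluK2, ranged over 2138 to 2742 in shControl and 2212 to 3659.9 in shOpn3 (log2 fold change 0.33 with an SE of 0.126, limma adjusted p = 0.0933). It was called without shOpn3 replicate 4 (log2 fold change 0.43, limma adjusted p = 0.0138) and after quantile normalization (0.37, limma adjusted p = 0.0479). Grik1 ranged over 775 to 1142 in shControl and 524 to 1256 in shOpn3 and Grik3 over 295 to 437 in shControl and 298 to 524 in shOpn3 (limma adjusted p = 0.663 and 0.448). In shOpn3 replicates 3, 4 and 5 Grik1 was under every control value, while replicates 1 and 2 were above every control value.

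Grid1, whose product organises synapses through cerebellins, did not pass the test. It ranged over 1014 to 1300.1 in shControl and 997 to 1209 in shOpn3 (log2 fold change -0.08 with an SE of 0.0901, limma adjusted p = 0.602).

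**Figure D2:**
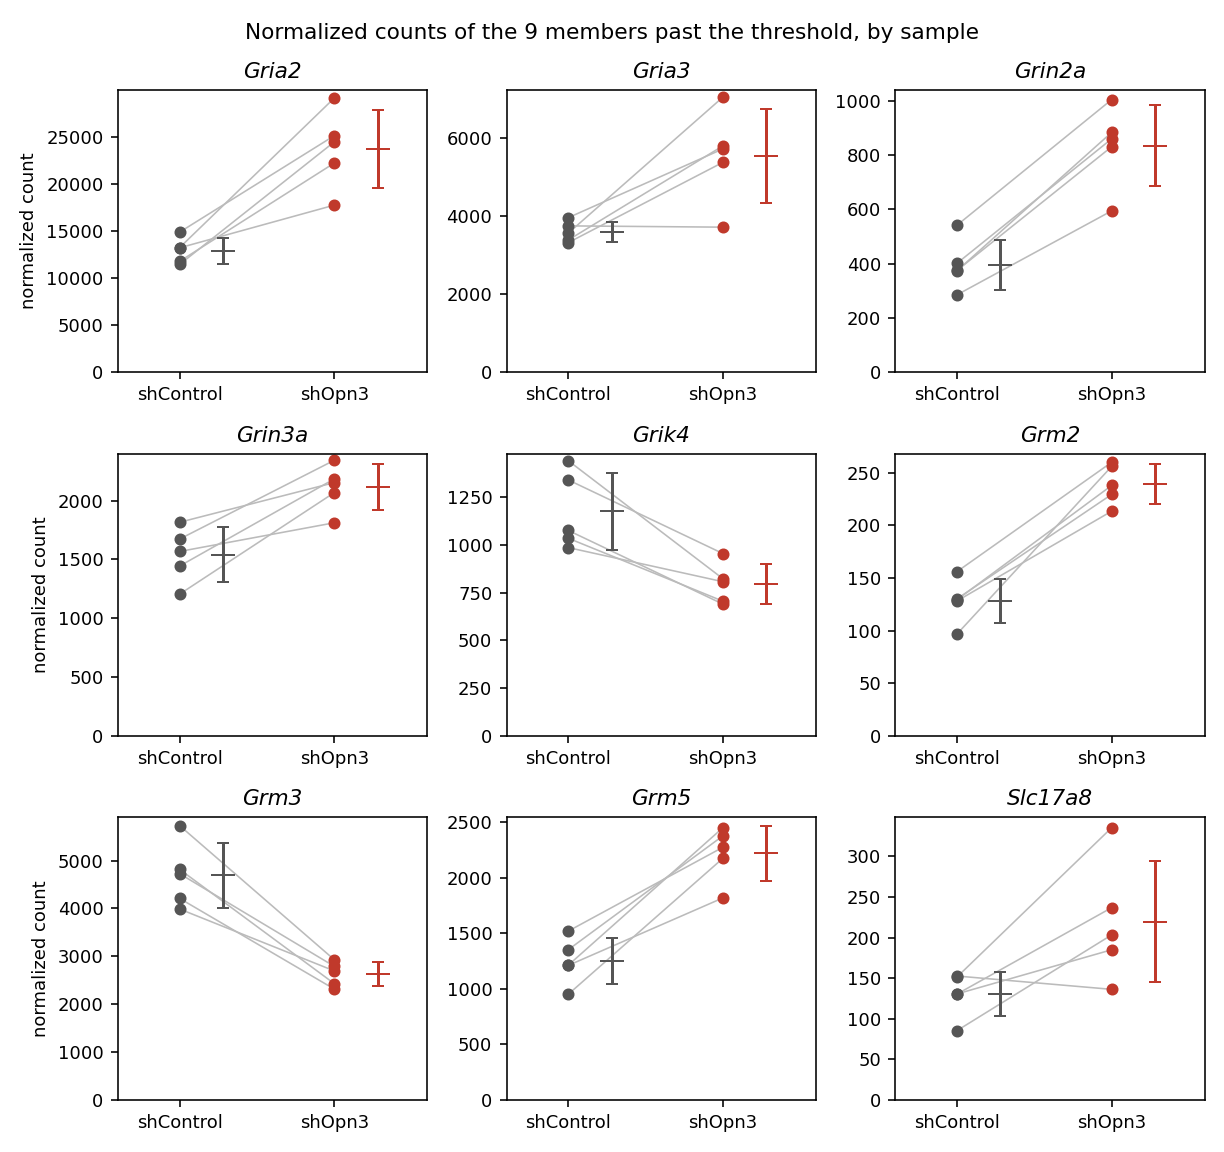
Normalized counts (y axis from 0) of the 9 genes past the threshold in each sample, grey for shControl and red for shOpn3, with lines joining samples of the same number and, beside the points, the mean and SD (n = 5). Groups are apart for Gria2, Grin2a, Grik4, Grm2, Grm3 and Grm5 and overlap for Gria3, Grin3a and Slc17a8.

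Metabotropic receptor genes changed in both directions. Group I receptors couple to Gq, and of their genes Grm5 rose. Grm5 (ENSRNOG00000016429) had 1212, 1351, 1518, 1209.7 and 951 across shControl nuclei 1 to 5 and 2449, 2376, 2273, 1817 and 2174 across shOpn3 nuclei 1 to 5. The lowest shOpn3 value, again in replicate 4, was above the highest control value. Grm5 rose from 1248 ± 209 to 2218 ± 247 (log2 fold change 0.84 with an SE of 0.123, limma adjusted p = 0.000845; SD, n = 5).

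Group II receptors, which couple to Gi, are encoded by Grm2 and Grm3, and their transcripts went opposite ways. Grm2 (ENSRNOG00000013171), a mostly presynaptic neuronal receptor gene, had 129, 130.2, 96.9, 128 and 156 across shControl nuclei 1 to 5 and 238, 229, 256, 213 and 259.9 across shOpn3 nuclei 1 to 5. The groups were far apart compared with their spread, at 128 ± 21.0 in the shControl nuclei and 239 ± 19.2 in the shOpn3 nuclei (SD, n = 5; log2 fold change 0.91 with an SE of 0.134, limma adjusted p = 0.000886). Grm3 (ENSRNOG00000005519), expressed in astrocytes as well as neurons, had 4726, 4209.6, 4817, 3988 and 5731 across shControl nuclei 1 to 5 and 2789.9, 2315, 2429, 2695 and 2929 across shOpn3 nuclei 1 to 5. The highest shOpn3 value lay well below the lowest control value. Grm3 fell to 56.1% of the control mean (log2 fold change -0.83 with an SE of 0.104, limma adjusted p = 0.000407), and pairs lay at 50.4% to 67.6% of the control.

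Group III receptors, also coupled to Gi and mostly presynaptic, gave no call in limma with group as the only term. Grm8 (ENSRNOG00000021468) had 516, 521, 608, 517 and 484 across shControl nuclei 1 to 5 and 771, 792, 666, 533 and 641 across shOpn3 nuclei 1 to 5. All 5 pairs were higher and the groups overlapped, and the test was narrowly missed (log2 fold change 0.35 with an SE of 0.115, limma adjusted p = 0.0515). Grm8 was called with the replicate block (limma adjusted p = 0.0296), and without a block by edgeR (0.0479), DESeq2 (0.0205) and limma-voom (0.0181). The DESeq2 run repeated the authors' own comparison on recovered reads. Their deposited DESeq2 adjusted p of 0.0205 is therefore not a separate result. Without shOpn3 replicate 4 the limma adjusted p was 0.0139, and without shControl replicate 3 it was 0.0389. Grm6, best known from retinal bipolar cells, ranged over 31.6 to 66.1 in shControl and 52.4 to 91.6 in shOpn3 (log2 fold change 0.54 with an SE of 0.227, limma adjusted p = 0.123; 0.0378 with the block). Grm7 ranged over 1204 to 1783 in shControl and 1283 to 2035 in shOpn3 (limma adjusted p = 0.411) and Grm4 over 58.2 to 144 in shControl and 72.0 to 116 in shOpn3 (limma adjusted p = 0.846).

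Of the transporter genes, Slc17a6 (ENSRNOG00000016147), the VGLUT2 gene of hypothalamic glutamatergic neurons, had 7558, 9149.8, 11832, 9711 and 6323 across shControl nuclei 1 to 5 and 8959.7, 11755, 6846, 5409 and 6832 across shOpn3 nuclei 1 to 5. The values scattered widely within both groups and overlapped (log2 fold change -0.18 with an SE of 0.207, limma adjusted p = 0.586). Slc17a8 (ENSRNOG00000007581), the VGLUT3 gene, had 130.5, 152, 131, 153 and 85.5 across shControl nuclei 1 to 5 and 237, 336, 185, 136 and 203 across shOpn3 nuclei 1 to 5. It rose in the test (log2 fold change 0.71 with an SE of 0.231, limma adjusted p = 0.0487), with shOpn3 replicate 4 inside the control range. This call was lost when any 1 library other than shOpn3 replicate 4 was left out, with limma adjusted p-values from 0.058 (without shControl replicate 4) to 0.0982 (without shOpn3 replicate 2), and also without the filter on low values (0.0628) or with quantile normalization (0.127). Slc1a1, the gene of the neuronal uptake carrier EAAC1, ranged over 3008 to 3900.3 in shControl and 3493 to 3899 in shOpn3 (log2 fold change 0.09 with an SE of 0.0804, limma adjusted p = 0.487).

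Auxiliary and scaffold genes did not pass the test. Dlg4, which encodes the postsynaptic scaffold PSD-95, had 7776, 5473, 5335, 5790.0 and 6712 across shControl nuclei 1 to 5 and 8556, 7942, 6342, 6339 and 7585 across shOpn3 nuclei 1 to 5. It was higher in 5 of 5 pairs by modest amounts (log2 fold change 0.25 with an SE of 0.121, limma adjusted p = 0.183; 0.0319 with the block). Cnih2 and Cnih3, whose products escort AMPA receptors and slow their closing, ranged over 906 to 1191 in shControl and 914 to 1365 in shOpn3 and over 154 to 248 in shControl and 176 to 269.6 in shOpn3 (limma adjusted p = 0.757 and 0.599). Grip1, the gene of a scaffold that binds GluA2, ranged over 687 to 909 in shControl and 631 to 897 in shOpn3 (limma adjusted p = 0.676).

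The make-up of each subunit family was then described as the share of each gene in the summed normalized counts of its family. These shares are not corrected for transcript length, so they compare the groups and not the subunits. A share also falls when another gene of its family rises. They use the same counts as the values above and were not tested.

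Gria2 took 52.4% ± 1.34 of the AMPA subunit counts in control nuclei and 60.3% ± 1.96 in shOpn3 nuclei (± SD, n = 5), and its shares of 50.2% to 53.5% and 58.0% to 62.2% did not overlap. Gria4 took 17.8% ± 1.69 and 13.5% ± 0.724, also with no overlap (15.3% to 19.3% against 12.3% to 14.0%). The share of Gria1 was lower in 5 of 5 pairs, at 15.2% ± 1.99 and 12.3% ± 2.35, and that of Gria3 stayed between 13.0% and 15.1% in all 10 samples. The mean counts of Gria1 and Gria4 themselves were not lower, at 132% and 120% of the control mean, and neither gene was called. The log2 ratio of Gria1 to Gria2 differed between the groups by -0.51.

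Among the GluN2 genes, Grin2a took 17.1% ± 1.32 of the counts in control nuclei and 30.0% ± 3.32 in shOpn3 nuclei (± SD, n = 5), with ranges of 15.0% to 18.2% and 26.4% to 33.9%. The share of Grin2d was lower with no overlap, at 15.2% ± 2.09 and 10.1% ± 1.34. The share of Grin2b was 29.2% ± 3.99 and 30.3% ± 4.90, and that of Grin2c 38.5% ± 5.30 and 29.6% ± 5.86, both with overlap. The log2 ratio of Grin2a to Grin2b was -0.76 ± 0.239 in shControl and -0.00445 ± 0.296 in shOpn3, higher in 5 of 5 pairs and without overlap.

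Within the kainate family the share of Grik2 was higher without overlap (39.7% ± 4.45 in shControl and 49.3% ± 3.67 in shOpn3; SD, n = 5), and that of Grik4 was lower in 5 of 5 pairs (19.5% ± 3.0 and 13.3% ± 2.70). The log2 ratio of Slc17a8 to Slc17a6 was -6.08 ± 0.263 in shControl and -5.19 ± 0.0931 in shOpn3, with no overlap. Both genes were high in shOpn3 replicate 2 and low in shOpn3 replicate 4, and their ratio in these samples lay close to that of the other shOpn3 nuclei.

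**Figure D3:**
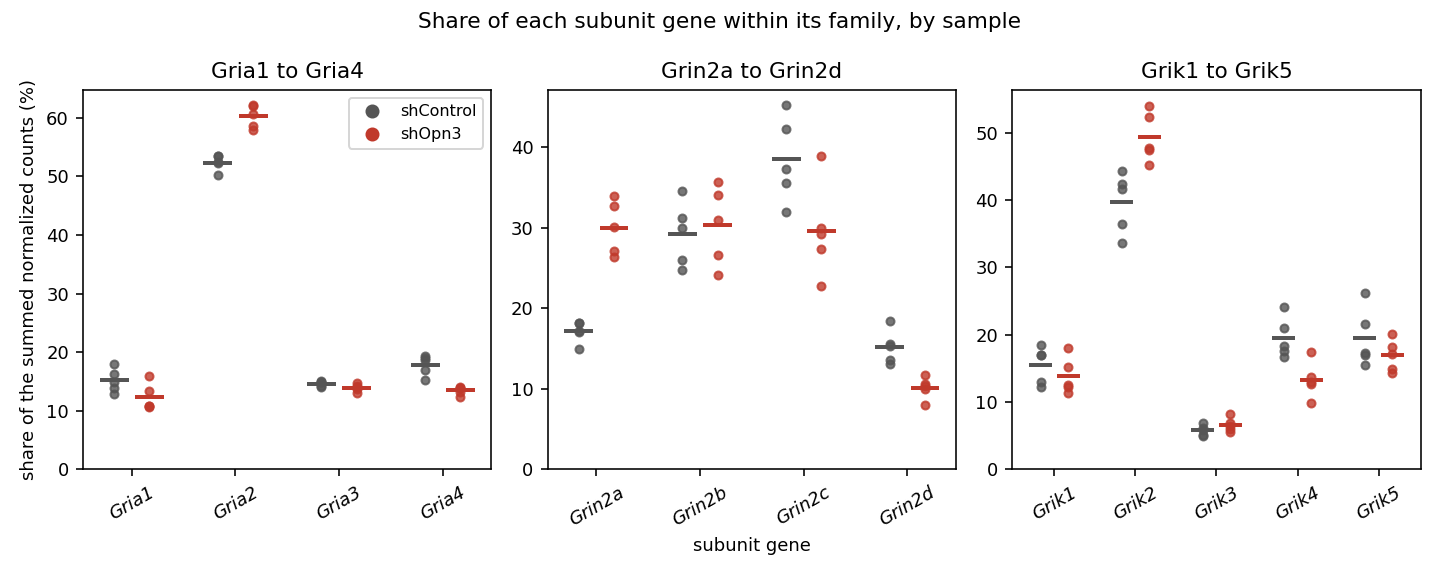
Share of each subunit gene in the summed normalized counts of its family (y axis, percent, from 0) for AMPA, GluN2 and kainate genes, with 1 point per sample (grey shControl, red shOpn3) and lines for the means. Gria2, Grin2a and Grik2 take larger shares in shOpn3, and Gria4 and Grin2d smaller ones, with no overlap between the groups. The counts of Grik2, Gria4 and Grin2d were not called, and the mean count of Gria4 was not lower in shOpn3.

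The samples did not contribute evenly. In shOpn3 replicate 4, 26 of the 32 genes had the lowest value of the group, and in shControl replicate 5 this held for 17 of 32. The same libraries had the lowest mean log2 level of 10 neuronal marker genes in their groups (12.94 and 13.08, against 13.28 to 13.67 and 13.34 to 13.45 in the others). The astrocyte mean was the highest of its group in both libraries (14.39 in shOpn3 replicate 4 and 14.28 in shControl replicate 5). So was the oligodendrocyte precursor mean (10.09 and 10.73). The microglial mean was highest in shOpn3 replicate 4 (11.44) and the oligodendrocyte mean highest in shControl replicate 5 (15.53). The endothelial mean was highest in shOpn3 replicate 4 (11.54) but lowest in shControl replicate 5 (11.27). With shOpn3 replicate 4 left out, 12 of the 32 genes were called (10 higher and 2 lower), against 16.2% of all genes (9.31% higher and 6.87% lower). With both libraries left out 13 were called (10 higher and 3 lower), against 16% of all genes (9.21% higher and 6.81% lower), a check added after these values were seen. Both libraries were singled out by the low values of these same 32 genes, so the counts without them lend no separate support to the rises. Over all genes the count called went from 2940 to 2520 and 2496.

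Markers of the cells a punch can hold differed between the groups as well. Among all genes tested 10.4% were called higher and 8.48% lower. Magnocellular markers were lower for 9 of 11 genes, with summed levels of 93079 to 217966 in shControl and 42958 to 81222 in shOpn3, and Nos1 and Scg2 did not pass. Oligodendrocyte markers were lower for 10 of 10 (760642 to 1289188 in shControl and 260638 to 489881 in shOpn3), and microglial markers higher for 9 of 10 (10237 to 14542 in shControl and 19386 to 40154 in shOpn3). Of 10 general neuronal markers 1 was higher and 2 were lower, with summed levels of 145131 to 205466 in shControl and 141447 to 244078 in shOpn3. Of 10 astrocyte markers 4 were higher and 1 was lower (319803 to 413994 in shControl and 362528 to 509578 in shOpn3), of 7 oligodendrocyte precursor markers 3 were lower (12792 to 18642 in shControl and 10989.8 to 14979 in shOpn3), and the 7 endothelial markers did not pass (19043 to 21686 in shControl and 16627 to 24292 in shOpn3). No marker of these lists was at 0 in any sample. The part of these shifts in the receptor values was not tested.

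Markers of forebrain projection and spiny neurons, cells of regions near the nucleus, went both ways. Of 11 tested 4 were higher, among them Slc17a7, Neurod6 and Drd1, and 3 lower, namely Fezf2, Adora2a and Rgs9, and Emx1 lay under the minimum mean. Their summed levels, to which Penk added most, were 5530.4 to 9075 in shControl and 6880.3 to 8529 in shOpn3. The mean log2 level over the list was 7.78 to 8.12 in shControl, 8.44 to 8.53 in 4 of 5 shOpn3 samples and 7.99 in shOpn3 replicate 4. Slc17a7 (ENSRNOG00000020650), the VGLUT1 gene of cortical and other forebrain glutamatergic neurons, had 253, 56.0, 61.2, 229 and 379.8 across shControl nuclei 1 to 5 and 1046, 928, 1991, 556 and 1566 across shOpn3 nuclei 1 to 5 (log2 fold change 2.88 with an SE of 0.528, limma adjusted p = 0.00285). No shControl sample reached the lowest shOpn3 sample, and within shOpn3 replicate 4 was the lowest for both Slc17a7 and Gria2, while the highest was replicate 3 for Slc17a7 and replicate 2 for Gria2. The part of such neurons in the receptor values was not tested.

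**Figure D4:**
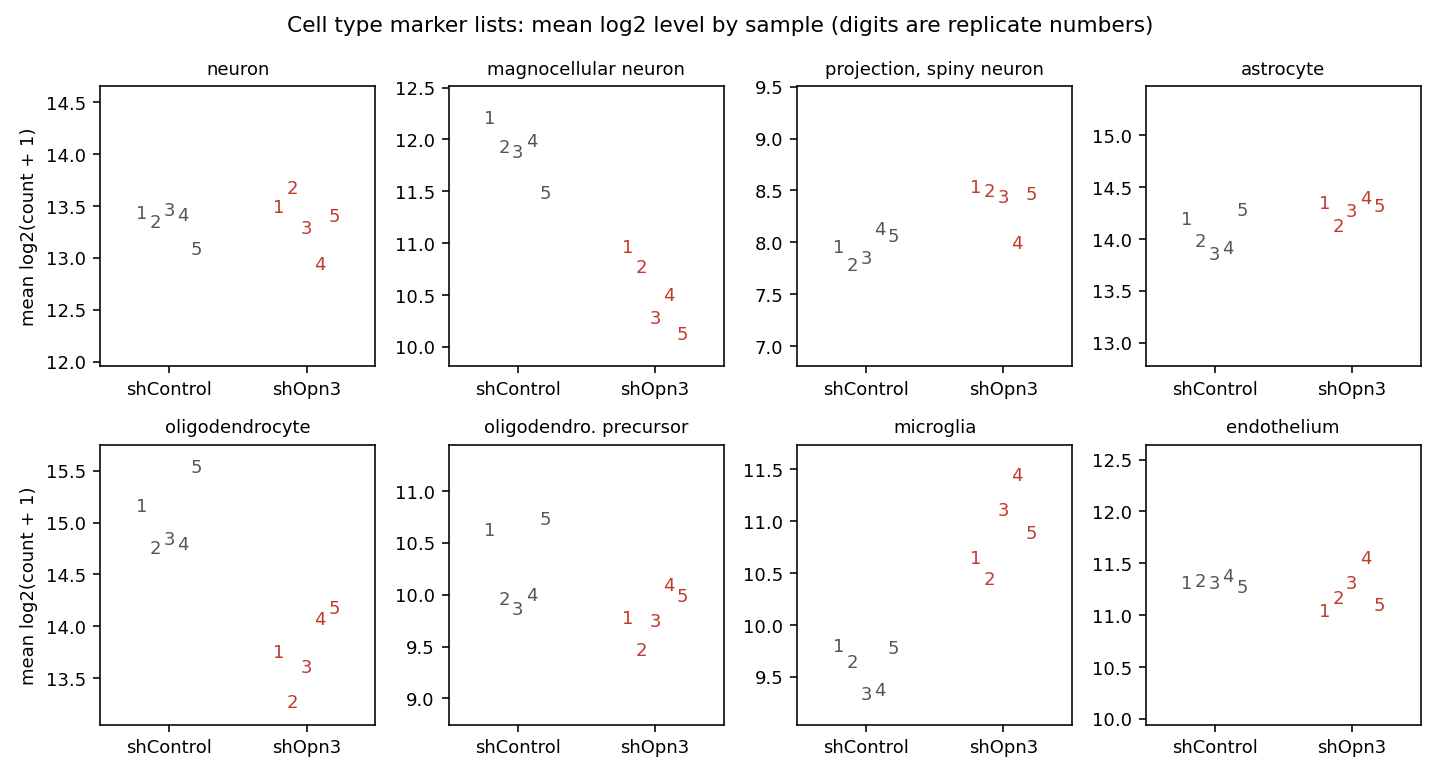
Mean log2(normalized count + 1) over the genes of 8 cell type marker lists (y axis, the same span of 2.7 log2 units in each panel), with the replicate number printed at each sample's value. Magnocellular and oligodendrocyte lists lie lower and the microglial list higher in every shOpn3 sample than in any shControl sample; the neuronal list overlaps, with shOpn3 replicate 4 and shControl replicate 5 lowest in their groups.

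The wider glutamate pathway was read from 4 lists of genes outside the set. These lists were chosen with earlier results of these data known, so their shares called lend no separate support. Of 70 genes tested 13 rose and 8 fell, a share of 30.0% called against 18.8% of all genes, with a median log2 fold change of 0.03. By direction 18.6% were higher and 11.4% lower, against 10.4% and 8.48% of all genes. With the replicate block, 32 were called, 20 higher and 12 lower, against 30.3% of all genes (15.1% higher and 15.2% lower).

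Among 16 genes of glutamate transport and metabolism, 3 rose, 3 fell and 10 did not pass. Besides Slc17a7, which stands in this list and among the forebrain markers, the rises were Slc7a11, the cystine-glutamate exchanger xCT (7142 to 8567 in shControl and 9495 to 12636 in shOpn3; log2 fold change 0.50 with an SE of 0.0940, limma adjusted p = 0.00346), and Srr, serine racemase, which makes the NMDA receptor co-agonist D-serine (1019 to 1256 in shControl and 1354 to 1706 in shOpn3; log2 fold change 0.43 with an SE of 0.0864, limma adjusted p = 0.00482). Slc7a10, the carrier Asc-1 that moves D-serine and glycine, fell (817 to 1078 in shControl and 501 to 698 in shOpn3; log2 fold change -0.67 with an SE of 0.115, limma adjusted p = 0.00194). The astrocytic carriers Slc1a2 and Slc1a3 did not pass (limma adjusted p = 0.129 and 0.316). Glul, also among the astrocyte markers, fell with no overlap (44767 to 54692 in shControl and 35550 to 40813 in shOpn3; log2 fold change -0.38 with an SE of 0.0817, limma adjusted p = 0.0065).

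Of 16 AMPA receptor auxiliary genes 2 rose and 3 fell. Shisa7 (1466 to 1703 in shControl and 2502 to 3079.6 in shOpn3; log2 fold change 0.86 with an SE of 0.0771, limma adjusted p = 0.000114) and Frrs1l, which acts in AMPA receptor assembly (483 to 597 in shControl and 713 to 855 in shOpn3; log2 fold change 0.60 with an SE of 0.0866, limma adjusted p = 0.000809), rose with no overlap. Shisa6 (189.8 to 254 in shControl and 114 to 174 in shOpn3; log2 fold change -0.62 with an SE of 0.148, limma adjusted p = 0.0123) and Cacng2, the gene of stargazin, which carries AMPA receptors to the membrane and whose groups overlapped (985 to 1505 in shControl and 596 to 1105 in shOpn3; log2 fold change -0.64 with an SE of 0.186, limma adjusted p = 0.0298), fell. The call for Cacng2 was lost without any 1 of shControl replicates 1 to 4 or shOpn3 replicates 3 to 5 (limma adjusted p of 0.0507 to 0.0823), and that for Shisa6 without both shControl replicate 5 and shOpn3 replicate 4 (0.0526).

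Of 12 partners of kainate and delta receptors tested 2 rose and 2 fell, 3 of them by more than any other gene of the 4 lists except Slc17a7. Cbln1, the cerebellin that bridges neurexins to the delta receptors, fell from 2259 ± 583 to 567 ± 145 normalized counts (SD, n = 5; log2 fold change -1.99 with an SE of 0.201, limma adjusted p = 0.000168). C1ql3, a related secreted synapse organiser, rose from 130.0 ± 50.1 to 488 ± 83.0 (SD, n = 5; log2 fold change 1.96 with an SE of 0.220, limma adjusted p = 0.000306). Both were without overlap, while the delta receptor gene Grid1 was not called. Cbln4 rose (log2 fold change 0.69 with an SE of 0.121, limma adjusted p = 0.00223) and C1ql4 fell (log2 fold change -1.79 with an SE of 0.445, limma adjusted p = 0.0146), the latter at only 15.3 to 48.5 in shControl and 2.12 to 16.3 in shOpn3 normalized counts with overlap. The other 8, among them the kainate receptor partners Neto1 and Neto2, did not pass.

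Of 26 postsynaptic scaffold and signalling genes 6 rose and 20 did not pass, with a median log2 fold change of 0.23. The share called was 23.1%, against 18.8% of all genes (10.4% higher). With the replicate block 12 were called (11 higher and 1 lower), where the block called 30.3% of all genes (15.1% higher and 15.2% lower). Akap5, which anchors protein kinase A at the synapse, had 318 to 424 in shControl and 552 to 836 in shOpn3 (log2 fold change 1.06 with an SE of 0.130, limma adjusted p = 0.000385). Homer1, whose product ties Grm5 receptors to the scaffold, had 438 to 598 in shControl and 745 to 892 in shOpn3 (log2 fold change 0.66 with an SE of 0.0967, limma adjusted p = 0.000814), and Dlgap1, a partner of PSD-95, had 2119 to 2692 in shControl and 2783 to 4463 in shOpn3 (log2 fold change 0.73 with an SE of 0.121, limma adjusted p = 0.00162). For these the groups did not overlap. Arc, an activity-induced gene that promotes AMPA receptor uptake, rose with overlap (70.2 to 244 in shControl and 201 to 357 in shOpn3; log2 fold change 1.25 with an SE of 0.311, limma adjusted p = 0.0149).

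**Figure D5:**
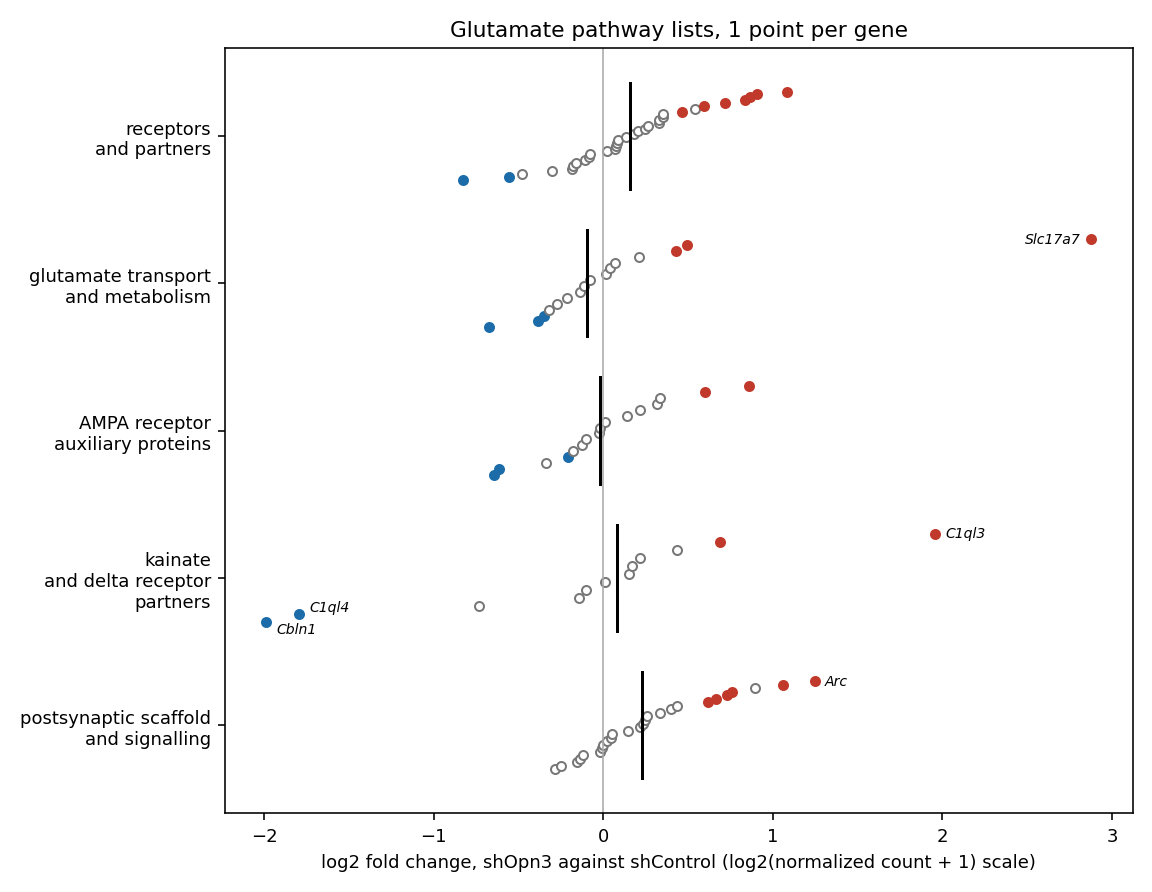
Log2 fold change (x axis, shOpn3 against shControl on the log2(normalized count + 1) scale) of each gene in the receptor and partner set and in the 4 other glutamate pathway lists, 1 point per gene, red for rises and blue for falls past an adjusted p of 0.05, open otherwise, with black lines at the medians. Labels name called genes beyond 1.2 on the log2 scale, with Slc17a7 at 2.88 and Cbln1 at -1.99 at the ends.

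The authors' deposited table called 10 of the 33 genes at an adjusted p under 0.05, 8 higher and 2 lower, where 21.3% of its 17437 genes with an adjusted p were called. These were the 9 genes above and Grm8.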

How the data were processed

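RNA sequencing values of 10 samples, 5 in each group, came as 1 deposited table. Per the submitters' processing notes, FastQC, STAR, featureCounts and DESeq2 were used; versions, genome build, annotation and strand setting are not given in the sources used here, so genes that overlap others are uncertain. The deposited signal per gene is a read count that the authors divided by 1 size factor per sample (0.942 to 1.07): 100% of the positive values were whole multiples of the smallest, within 0.001, and whole reads were recovered. Per the file headers, the deposited table also holds the authors' log2 fold changes, Wald score and p-values.

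Values were compared as log2(normalized count + 1) with limma 3.58.1 (R 4.3.3, trend, two-sided, group as the only term) over all 15597 genes with a mean of at least 10, with Benjamini-Hochberg adjustment and a threshold of 0.05. Such fold changes understate those of low genes. On recovered reads, edgeR 4.0.16 (quasi-likelihood), DESeq2 1.42.0 and limma-voom were run as alternatives, beside other pseudocounts, filters and scalings, a replicate block and each library left out. The tests were checked on simulated data. Single genes were also compared by exact permutation that ignored the pairing. Labels do not say that samples of 1 group came from separate rats, so p-values measure the spread between these samples.

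Each rat gave a nucleus to both groups, though no label ties equal numbers to 1 rat. Samples with 1 number deviated from the group means together in all 5 pairs (r from 0.121 to 0.439, across genes, against a median of -0.21 and a highest of 0.360 for other pairings), and 8 of 10 samples correlated best with their own number. Because deviations were taken from each group's own mean, positive values for equal numbers by themselves push the other pairings below them. The numbers were taken to pair the samples, but these correlations cannot show that equal numbers came from 1 rat. Members, lists and the naming rule (members tested, and up to 4 called genes per pathway list by smallest p) were chosen with earlier results of these data known. From the pathway lists, Slc1a2, Slc1a3, Glul, Neto1 and Neto2 were named outside this rule. No gene lengths or proteins were used. Some genes enter the counts and medians, but their own values are not reported here.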

Additional observations from a re-analysis of the deposited data

Results flagged for a closer look

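Among 64 group values examined (each of the 32 tested genes in each group), 1 had a sample set apart from the rest of its group, where chance gives about 3.2 at 1 in 20. For Grin1 this was shControl nucleus 1, at 7908 normalized counts, where the second highest control nucleus had 6323. This library had the highest value of its group for 12 of the 32 genes, among them also Grik5 (1667) and Dlg4 (7776).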

How the results depend on the processing

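Of the 9 called genes, Gria2, Gria3, Grin2a, Grin3a, Grik4, Grm2, Grm3 and Grm5 kept direction and call in all 22 alternatives, and Slc17a8 lost the call in 11, always with the same direction. Of the 21 genes described that were not called, 6 passed the threshold in some alternative (Gria1, Grik2, Grik5, Grm6, Grm8 and Dlg4). Signs changed in 4 of the 21, namely Grin2c, Grik1, Grm4 and Cnih2, near 0 and without a call. This held for Grin2c under limma-voom (0.031), and with quantile normalization Grm4 (-0.059). Leaving out 1 library gave a Grik1 log2 fold change of -0.31 to 0.0025, and Grin2c -0.23 to 0.030, Grm4 -0.070 to 0.25 and Cnih2 -0.015 to 0.13.

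Over all genes called, the count was 2940, and 4726 with the replicate block in limma, 4777 with it in edgeR and 5085 under limma-voom with quality weights; other pathway genes called numbered 21, and 32, 32 and 33 in these fits. Called members numbered 12 with the block in limma and 13 in edgeR, and the block moved no other member's call than those of Grm6, Grm8 and Dlg4, plus Grik5 in edgeR. The cause of these differences was not tested. Leaving out 1 library gave 1973 to 3057 genes called over all, 8 to 12 members, 16 to 22 pathway genes, 41 to 48 marker genes (46 with all libraries), and ratio differences of -0.63 to -0.44 (Gria1 to Gria2), 0.67 to 0.87 (Grin2a to Grin2b) and 0.80 to 0.96 (Slc17a8 to Slc17a6). Scalings kept the median log2 fold change of all genes between -0.035 and -0.010.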
